A study of Mus musculus with 4 samples.

Results

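The genes described here encode the proteins of the cytosolic ribosome in E14, a line of pluripotent mouse embryonic stem cells, that carried an shRNA against the endogenous retrovirus MERVL or a random shRNA. They are the Ensembl gene rows whose mouse symbol begins with Rps or Rpl followed by a number (optionally ending in a, l or x), the 3 stalk genes Rplp0 to Rplp2, and Rpsa, kept where 2 or more libraries held over 5 estimated counts. That gave 82 of 43496 gene rows, 32 for the small and 50 for the large subunit, and no row that matched by name failed the count rule. The lowest was Rpl3l, with 32 to 48 estimated counts per library, far above the count rule, and all 82 also passed the low-count filter of the test. Of the 82, 80 are annotated as protein-coding, while Rpl6l and Rps4l are annotated as processed pseudogenes. Their log2 fold changes, MERVL shRNA over random shRNA, were positive in 78 of the 82, against 48.6% of all features tested, and none passed the edgeR test. The median was 0.33 over the small and 0.26 over the large subunit, and 0.14 and 0.07 without random shRNA replicate 1, the library with the lowest share of these mRNAs.

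RNA was sequenced from 2 libraries of cells with MERVL shRNA (genotype labelled MERVL knocked down), which were compared with 2 libraries of cells with a random shRNA (genotype labelled wild type), all of the strain labelled 12910la. All cells were grown with 15% FBS and 10 ng/ml LIF, transfected with 1000 ng of a pSuper puro plasmid and selected from 24 h on with 1 ug/ml puromycin for 4 days, so the control cells carry plasmid and drug selection as well. The labels name no clone. They do not tell whether replicates came from different cultures, and the spread behind every p-value here may thus be technical. Summed over 2277 genomic copies, MERVL RNA stood at 1161 and 572.3 CPM (counts scaled to library size with TMM) in MERVL shRNA libraries, against 4661 and 1431 CPM in random shRNA libraries. The groups did not overlap, but the random shRNA libraries lay further from each other than replicate 2 of that group lay from MERVL shRNA replicate 1.

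The cytosolic ribosome joins a small subunit, which reads the mRNA, to a large subunit, which forms the peptide bond and carries the exit tunnel and the stalk that recruits elongation factors. Its proteins are needed in near equal numbers and their mRNAs are among the most abundant in dividing cells. In vertebrates these mRNAs begin with a terminal oligopyrimidine tract, a C followed by further pyrimidines, through which mTORC1 signalling and Larp1 control their translation. Most of the genes have many processed pseudogenes in the mouse genome, and several have paralogs with restricted expression.

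The starts of 8 of these genes are shown because they are the genes with the highest (Rps21, Rps28, Rps27, Rps23, Rpl38, Rpl37) and lowest (Rps13, Rpl39l) log2 fold changes in their subunit among those with a promoter in the RefSeq table for GRCm38.p6. The 2 lowest were added after their values were seen. Each line gives 60 bases before and 20 bases from the annotated start on, on the gene's own strand, and capitals mark runs of at least 8 pyrimidines that begin with C.
Rps21: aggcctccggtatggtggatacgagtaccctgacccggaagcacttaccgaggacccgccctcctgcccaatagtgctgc
Rps28: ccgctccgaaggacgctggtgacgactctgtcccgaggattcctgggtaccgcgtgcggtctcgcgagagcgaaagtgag
Rps27: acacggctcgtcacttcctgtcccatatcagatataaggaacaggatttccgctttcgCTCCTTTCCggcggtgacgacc
Rps23: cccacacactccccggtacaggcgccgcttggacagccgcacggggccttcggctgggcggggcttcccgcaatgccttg
Rpl38: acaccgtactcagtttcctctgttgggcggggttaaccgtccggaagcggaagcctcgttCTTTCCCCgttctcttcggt
Rpl37: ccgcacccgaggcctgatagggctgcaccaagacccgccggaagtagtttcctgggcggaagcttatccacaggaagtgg
Rps13: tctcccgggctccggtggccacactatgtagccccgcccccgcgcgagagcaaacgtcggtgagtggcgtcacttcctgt
Rpl39l: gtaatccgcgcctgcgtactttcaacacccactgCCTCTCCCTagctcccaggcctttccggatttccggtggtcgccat
Rps21 lies at chr2:180257319-180257398 on the plus strand, Rps28 at chr17:33824543-33824622 on the minus strand, Rps27 at chr3:90213629-90213708 on the minus strand and Rps23 at chr13:90923062-90923141 on the plus strand. Rpl38 lies at chr11:114668520-114668599 on the plus strand, Rpl37 at chr15:5116553-5116632 on the plus strand, Rps13 at chr7:116334171-116334250 on the minus strand and Rpl39l at chr16:10170168-10170247 on the plus strand. In these windows the run was present in Rps27 and Rpl38 among the 6 highest genes and in Rpl39l of the 2 lowest. It spans the annotated start in Rps27 and begins there in Rpl38, while in Rpl39l all of it lies before that start. Annotated starts can lie some bases from the start used in these cells.

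RefSeq promoters were found for 60 of the 82 genes, 72 promoters in all. Within 50 bases each side of the start, a pyrimidine run of at least 8 bases beginning with C was present on the sense strand in 57 of 72 (79.2%), against 28.8% of 32851 promoters of all genes. The letters CTTTC, which can lie inside such a run, were present there in 36 of the 72, against 12.8% of all promoters. Over the whole 300 bases and both strands, CCGGAAG, a core of binding sites of ETS factors, was present in 36.1% against 8.86%, and AAGATGGC, a core of YY1 sites, in 9.72% against 2.75%. TATAAA was in none of the 72 in the 50 bases before the start on the sense strand, and in 2.63% of all promoters. These matches describe letters only.

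Library totals ran from 11628887 to 16067854 estimated counts. One library, random shRNA replicate 1, stood apart: its Pearson r over the 16353 features tested, on log2(CPM + 1), was 0.963 to 0.972 with the other 3 libraries, while those 3 had 0.985 to 0.995 among themselves. All 10 markers of embryonic stem cells were detected in each library. Their median log2 fold change was 0.20, or 0.21 without random shRNA replicate 1, with 8 of 10 positive (48.6% of all features). Both MERVL shRNA libraries lay above both random shRNA libraries in 7 of 10 (22.1% of all features) and edgeR called 0. The fibroblast list summed to 669.5 and 665.6 CPM in MERVL shRNA libraries, against 721.6 and 713.7 CPM in random shRNA libraries, mostly Fn1 and Vim. Fn1 was higher with MERVL shRNA (490.9 and 477.8 CPM, against 458.8 and 466.2 CPM with random shRNA). Vim was lower (160.0 and 172.5 CPM, against 231.9 and 206.1 CPM). Of the 5 genes of the list that were tested, 2 had a positive log2 fold change (48.6% of all features). Of all 10 genes in the list, Col3a1, Dcn, Lum and Postn were at 0 in every library, and Col1a1, Pdgfrb and Thy1 were detected at low levels. Col1a2, which was not tested, had 0.0629 and 0.0 CPM with MERVL shRNA, against 0.447 and 0.335 CPM with random shRNA. Thy1, a surface protein, had 8.67 and 6.88 CPM with MERVL shRNA, against 23.1 and 28.9 CPM with random shRNA (log2 fold change -1.73, edgeR adjusted p = 0.211). Col1a1 had 0.629 and 0.851 CPM with MERVL shRNA, against 1.98 and 1.26 CPM with random shRNA, and Pdgfrb lay between 5.42 and 11.0 CPM in the 4 libraries. The part of such cells in the ribosomal protein values was not tested. In bulk RNA, fewer cells of a kind and less RNA per cell cannot be told apart.

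Ribosomal protein mRNAs took 11.6% and 12.6% of all estimated gene counts in MERVL shRNA replicates 1 and 2, against 9.11% and 12.0% in random shRNA replicates 1 and 2. The low library was random shRNA replicate 1, the other 3 lay close together, and the groups overlapped. The small subunit took 4.65% and 5.13% in MERVL shRNA libraries, against 3.68% and 4.78% in random shRNA libraries. The large subunit took 6.93% and 7.49% in MERVL shRNA libraries, against 5.44% and 7.24% in random shRNA libraries. Wilson 95% intervals, which cover counting error only, were narrower than the gaps between libraries (9.10% to 9.13% for all 82 genes in random shRNA replicate 1). Group means for all 82 were 12.1% ± 0.732 with MERVL shRNA and 10.6% ± 2.05 with random shRNA (SD, n = 2 each), a difference smaller than the spread of the random shRNA pair. The ratio of group means was 1.16 for the small and 1.14 for the large subunit. Without random shRNA replicate 1 it was 1.02 and 0.997, so the large subunit's direction turned. Counts of the large subunit were 1.49 and 1.46 times those of the small subunit in MERVL shRNA libraries, against 1.48 and 1.52 times in random shRNA libraries.

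**Figure D1:**
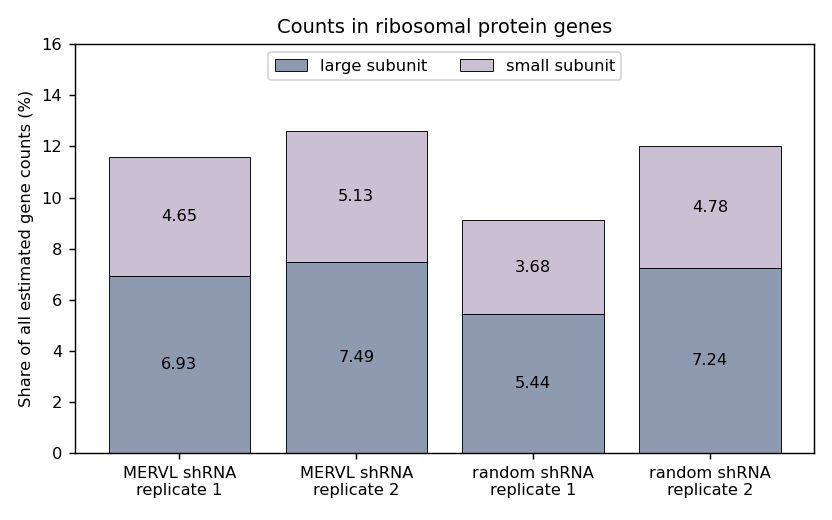
Share of all estimated gene counts (%, vertical axis) in large and small subunit genes for each library, as stacked bars from 0. Random shRNA replicate 1 is lowest at 9.11% in all, and the other 3 libraries lie between 11.6% and 12.6%.

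Gene by gene, most of the set had higher values with MERVL shRNA, and none passed the test. The edgeR quasi-likelihood F test over all 16353 features called 0 of the 82 at an adjusted p under 0.05, where it called 0.00612% of all features higher (1 feature) and 0.0% lower. DESeq2 also called 0 of the 82 (0.446% of its features higher, 1.01% lower), as did limma-voom (0.0% in each direction). Without the low-count filter edgeR called Rps21 higher (0.991% of features higher, 3.76% lower). At an unadjusted p under 0.05, 4 of the 82 were higher (4.88%, against 4.69% of all features) and 0 were lower (against 8.92%), so the share higher was near the background. The median log2 fold change was 0.28 over the 82 and -0.01 over all features tested. Among the 82 the log2 fold change had an SD of 0.16, against 0.61 over all features.

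Both MERVL shRNA libraries lay above both random shRNA libraries in 38 of 82 genes (46.3%, against 22.1% of all features), 18 of the small and 20 of the large subunit. Both lay below in 0 of 82, against 24.1%. Set against random shRNA replicate 1 alone, both MERVL shRNA libraries were higher in 75 of 82 (background 42.1%), and against replicate 2 alone in 40 of 82 (background 39.0%). The median log2 difference from random shRNA replicate 1 was 0.44 for MERVL shRNA replicate 1 and 0.61 for replicate 2. From random shRNA replicate 2 it was -0.00 and 0.15.

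**Figure D2:**
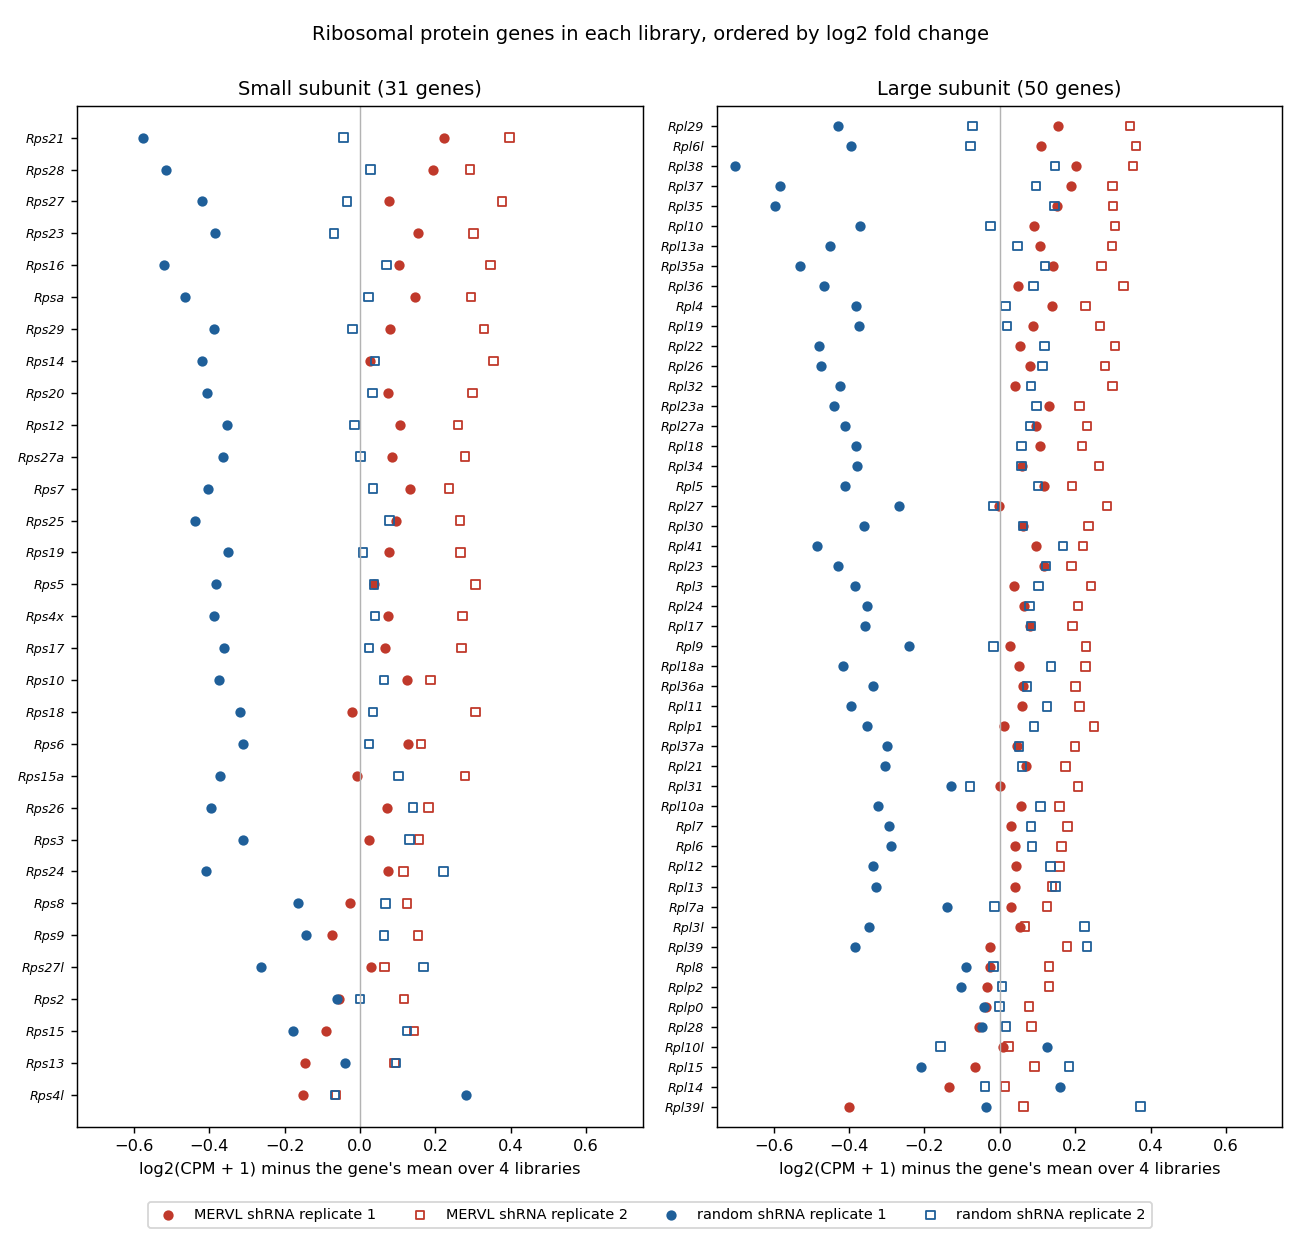
Level of 31 of the 32 small (left) and of all 50 large (right) subunit genes in each library, as log2(CPM + 1) minus the gene's mean over the 4 libraries, ordered by log2 fold change with the highest at the top. Random shRNA replicate 1 (filled blue circles) lies left of the other libraries in most rows, while it lies above random shRNA replicate 2 in Rps4l, Rpl10l and Rpl14.

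Values of the set also shared a direction within each group. Random shRNA replicate 2 was above replicate 1 in 78 of 82 genes (49.9% of all features), with a median gap of -0.43 for replicate 1 minus replicate 2 on log2(CPM + 1). MERVL shRNA replicate 2 was above replicate 1 in 82 of 82 (49.8% of all features), with a median gap of -0.16. Over all features tested both median gaps were 0.00. The gap of the random shRNA pair was larger than the median difference between the groups. Without random shRNA replicate 1 the medians were 0.14 for the small and 0.07 for the large subunit, and without replicate 2 they were 0.55 and 0.54. In these fits the remaining random shRNA library is assumed to vary like the MERVL shRNA pair. Without MERVL shRNA replicate 1 or 2, edgeR called 0 of the 82 (0.0116% and 0.0115% of features higher, 0.0% lower). Without random shRNA replicate 2 it called 60 of the 82 higher (background 14.9%) and Rps4l lower (background 17.4%). Without random shRNA replicate 1 it called 0 higher (background 6.77%) and Rpl39l lower (background 7.28%).

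**Figure D3:**
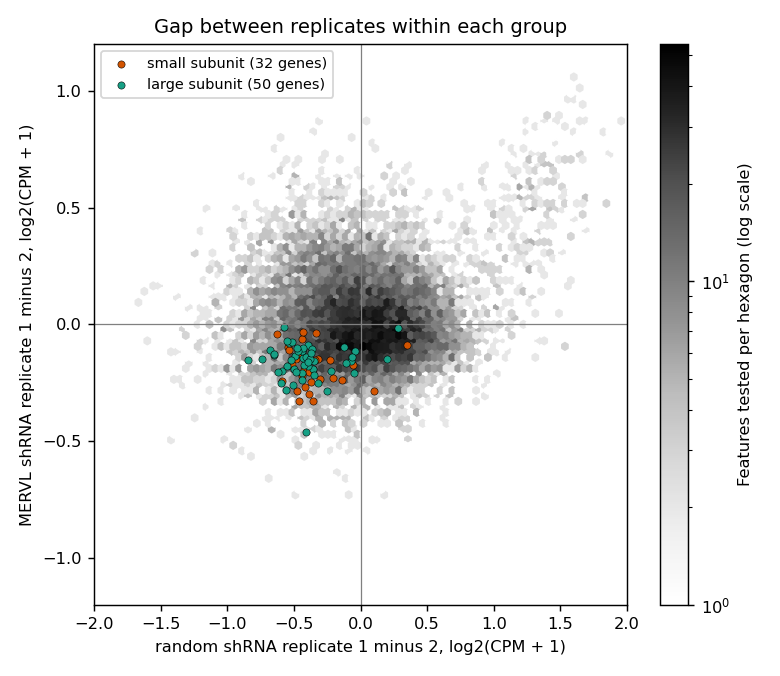
Difference between replicates 1 and 2 of the random shRNA group (horizontal) and of the MERVL shRNA group (vertical), on log2(CPM + 1), for all 16353 features tested (grey hexagons, log colour scale) and for ribosomal protein genes (points). The points sit below 0 on the vertical axis in 82 of 82 genes and left of 0 in 78 of 82. The axes leave out 41 features.

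Small subunit genes at the top of the order were Rps21, Rps28, Rps27 and Rps23. Rps21, a small protein of this subunit, had 476.6 and 537.8 CPM in MERVL shRNA libraries, against 273.7 and 396.1 CPM in random shRNA libraries. The groups did not overlap, and random shRNA replicate 1 was the lowest. Means were 507.2 ± 43.3 CPM with MERVL shRNA and 334.9 ± 86.6 CPM with random shRNA (SD, n = 2 each). The log2 fold change was 0.60 with an SE of 0.21 (edgeR adjusted p = 0.337), and errors after fold changes below are SEs too. This was the largest of the 82, and it stayed positive without random shRNA replicate 1 (0.36) and without replicate 2 (0.91).

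Rps28, which lies near the mRNA exit of the small subunit, had 255.2 and 273.1 CPM with MERVL shRNA, against 155.7 and 227.2 CPM with random shRNA. Its log2 fold change was 0.47 ± 0.21 (edgeR adjusted p = 0.386), and the groups did not overlap. Rps27, a zinc-binding protein, had 678.2 and 834.3 CPM with MERVL shRNA, against 480.0 and 627.2 CPM with random shRNA, again without overlap. Rps23, a protein of the decoding centre, had 1655 and 1833 CPM with MERVL shRNA, against 1140 and 1419 CPM with random shRNA. Its log2 fold change was 0.45 ± 0.18 (edgeR adjusted p = 0.366), and both random shRNA libraries lay below both MERVL shRNA libraries. Rpsa, also known as the laminin receptor, had 4679 and 5183 CPM with MERVL shRNA, against 3062 and 4293 CPM with random shRNA, with a log2 fold change of 0.42 ± 0.22 (edgeR adjusted p = 0.468).

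Rps16, whose tail reaches the decoding site, and Rps24, a gene mutated in human Diamond-Blackfan anaemia, had the widest small-subunit gaps between the random shRNA libraries. Rps16 had 1502 and 1777 CPM with MERVL shRNA, against 973.9 and 1467 CPM with random shRNA, and a log2 fold change of 0.43 ± 0.24. Rps24 had 2087 and 2149 CPM with MERVL shRNA, against 1494 and 2312 CPM with random shRNA. Here random shRNA replicate 2 was the highest of the 4 libraries, and the log2 fold change of 0.16 ± 0.24 turned to -0.12 without replicate 1. Rps19, the gene most often mutated in that anaemia, had 0.34 ± 0.19, and Rps6, the target of S6 kinase, 0.28 ± 0.19.

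At the lower end of the small subunit, Rps13 had 521.1 and 614.6 CPM with MERVL shRNA, against 560.4 and 615.8 CPM with random shRNA. The ranges overlapped almost fully (log2 fold change -0.05 ± 0.16). Rps2, a protein of the mRNA entry site, had 3181 and 3583 CPM with MERVL shRNA, against 3171 and 3304 CPM with random shRNA. Here random shRNA replicate 1 was level with MERVL shRNA replicate 1, and the log2 fold change was 0.06 ± 0.18.

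Of the large subunit, Rpl29, Rpl38, Rpl6l and Rpl37 led. Rpl38, needed in mouse embryos for translation of a set of Hox mRNAs, had 242.0 and 268.8 CPM with MERVL shRNA, against 128.9 and 232.8 CPM with random shRNA. Of the 4 libraries random shRNA replicate 1 was lowest by far, and without it the log2 fold change of 0.50 ± 0.28 (edgeR adjusted p = 0.490) was 0.14. Rpl37, a zinc-binding protein, had 881.7 and 951.6 CPM with MERVL shRNA, against 515.6 and 827.2 CPM with random shRNA (log2 fold change 0.45 ± 0.24). Rpl35, at the mouth of the exit tunnel, had 735.3 and 815.9 CPM with MERVL shRNA, against 437.7 and 732.2 CPM with random shRNA. Rpl35 and Rpl38 had the widest gaps of the large subunit within the random shRNA pair, -0.74 and -0.85.

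Rpl29, a surface protein of the large subunit, was at far lower counts than its neighbours, with 27.2 and 31.1 CPM with MERVL shRNA, against 17.8 and 23.1 CPM with random shRNA. The groups did not overlap, and the log2 fold change was 0.52 ± 0.19 (edgeR adjusted p = 0.340), or 0.34 without random shRNA replicate 1. Rpl6l, a single-exon processed pseudogene, was at 17.4 and 20.9 CPM with MERVL shRNA, against 12.0 and 15.2 CPM with random shRNA, 0.50 ± 0.21. The estimated counts of 79 of the 82 genes were not whole in at least 1 library, as when reads are split between features, and the level of a gene with close copies is uncertain.

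Stalk genes had log2 fold changes from 0.04 to 0.25, and the differences between these genes were not tested. Rplp0, the base of the stalk, had 1470 and 1591 CPM with MERVL shRNA, against 1464 and 1505 CPM with random shRNA. These 4 values lay close together, and the log2 fold change was 0.04 ± 0.16, or -0.0152 with total count scaling. Rplp1 and Rplp2, which form the flexible arms, had 0.25 ± 0.21 and 0.10 ± 0.16. Without random shRNA replicate 1, Rplp0, Rplp1 and Rplp2 had 0.028, 0.049 and 0.049. Rplp1 stood at 2084 and 2461 CPM with MERVL shRNA, against 1622 and 2204 CPM with random shRNA, so random shRNA replicate 1 was low in Rplp1 and level with MERVL shRNA replicate 1 in Rplp0.

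Paralogs with restricted expression were compared with the genes they resemble. Rpl39l, a testis-enriched paralog of Rpl39 at the exit tunnel, had 21.9 and 30.5 CPM with MERVL shRNA, against 28.4 and 38.1 CPM with random shRNA. The groups overlapped, and the log2 fold change was -0.34 ± 0.23 (edgeR adjusted p = 0.580), the lowest of the 82. Leaving out random shRNA replicate 1 gave -0.54, and leaving out replicate 2 of that group gave -0.105. Rpl39 had 145.2 and 167.6 CPM with MERVL shRNA, against 113.1 and 173.9 CPM with random shRNA, 0.13 ± 0.22.

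Rps4l, a single-exon processed copy of Rps4x, had 417.2 and 444.0 CPM with MERVL shRNA, against 564.1 and 443.1 CPM with random shRNA. Of the 4 libraries, random shRNA replicate 1 was the highest in Rps4l and the lowest in Rps4x, whose values were 2355 and 2700 CPM with MERVL shRNA, against 1711 and 2299 CPM with random shRNA. Log2 fold changes were -0.23 ± 0.17 for Rps4l and 0.33 ± 0.21 for Rps4x. Rpl10l, an autosomal retrogene that in mice stands in for X-linked Rpl10 during male meiosis, had 137.4 and 138.8 CPM with MERVL shRNA, against 149.0 and 122.4 CPM with random shRNA. Both MERVL shRNA libraries lay between the random shRNA libraries in Rpl10l (0.02 ± 0.15, or -0.0324 with total count scaling), whereas Rpl10, which joins the large subunit late, had 0.39 ± 0.20. Counts of Rps4l were whole in every library and those of Rpl10l were not, and how reads were divided between these copies and their source genes was not tested.

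Rps27l, a paralog of Rps27 that p53 induces in human cells, had 210.2 and 215.3 CPM with MERVL shRNA, against 171.4 and 231.4 CPM with random shRNA, 0.08 ± 0.18, while Rps27 had 0.45 ± 0.20. Rpl3l, the paralog of striated muscle, was at 3.02 and 3.05 CPM with MERVL shRNA, against 2.04 and 3.52 CPM with random shRNA. Its source Rpl3, at 2697 and 3108 CPM with MERVL shRNA, against 2015 and 2820 CPM with random shRNA, had 0.26 ± 0.22. The differences between paralogs and their partners were not tested. Rps27a, whose protein is fused to ubiquitin, had 0.35 ± 0.20, Rpl41, the smallest protein of the ribosome, 0.28 ± 0.25 and Rpl22 0.34 ± 0.23.

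Per length of exon, levels spread widely over genes whose proteins are needed in near equal numbers. Over the 31 protein-coding small subunit genes the median was 733.1 RPKM (CPM per kb of exon) with MERVL shRNA and 566.6 RPKM with random shRNA. Rps2 was highest at 1848 and 1769 RPKM in the MERVL and random shRNA groups, followed by Rps6 at 1795 and 1481 RPKM. Rps28 was lowest at 153.7 and 111.4 RPKM, below Rps19 at 175.8 and 139.3 RPKM. Over the 49 protein-coding large subunit genes the medians were 565.6 RPKM with MERVL shRNA and 471.4 RPKM with random shRNA, from Rpl3l at 1.85 and 1.69 RPKM to Rplp1 at 4554 and 3833 RPKM. Next to these extremes lay Rpl29 at 25.9 and 18.1 RPKM and Rpl4, a core protein of the exit tunnel, at 2438 and 1909 RPKM. Rpl14, with the lowest fold change of the large subunit after Rpl39l, had 885.6 and 982.0 CPM with MERVL shRNA, against 1087 and 946.3 CPM with random shRNA (-0.12 ± 0.17). Lengths joined all annotated exons of a gene, and isoforms with retained introns lengthen them, so single levels are approximate.

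Further ribosomal and related proteins have symbols that the name pattern misses. Of 9 such genes, 7 had a positive log2 fold change (48.6% of all features), and edgeR called 0 (0.00612% of all features higher, 0.0% lower). Their median was 0.25, or 0.09 without random shRNA replicate 1. Rps3a1 had 0.27 ± 0.19, Fau, a fusion that yields a small subunit protein, 0.25 ± 0.18, and Rack1, a scaffold on the small subunit, 0.24 ± 0.20. Rpl22l1, the paralog of Rpl22, had 90.01 and 110.7 CPM with MERVL shRNA, against 101.3 and 148.2 CPM with random shRNA, and a log2 fold change of -0.31 ± 0.22.

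Other genes of translation had medians nearer 0 with all 4 libraries. EdgeR called 0 in each of these lists in either direction (0.00612% of all features higher, 0.0% lower). The median was 0.03 over 35 initiation factors, 0.04 over 13 elongation and release factors, 0.03 over 43 ribosome assembly factors, 0.01 over 6 chaperones of single ribosomal proteins, 0.00 over 17 genes of RNA polymerase I and 0.11 over 22 genes of mTORC1 and translation control. Among 21 other mRNAs with a terminal oligopyrimidine tract it was 0.08, with 13 positive (48.6% of all features). Pabpc1, the poly(A)-binding protein and itself of that class, had 1750 and 1736 CPM with MERVL shRNA, against 2871 and 2320 CPM with random shRNA. Its groups did not overlap (-0.57 ± 0.18, edgeR adjusted p = 0.329), whereas Tpt1, a growth-related protein in the elongation list, had 0.37 ± 0.17. Eif4h, which aids the helicase of initiation, had -0.49 ± 0.22, and Eef1e1, a scaffold of the aminoacyl-tRNA synthetase complex, -1.2 ± 0.14 (edgeR adjusted p = 0.197). In assembly, Nop14 and Ebna1bp2 had -0.49 ± 0.17 and -0.41 ± 0.15, both at an edgeR adjusted p above the threshold (0.329 and 0.338). Taf1c and Polr1e of RNA polymerase I had -0.55 ± 0.25 and 0.29 ± 0.14, and Rragb and Deptor of the mTORC1 list 0.36 ± 0.15 and 0.30 ± 0.14. Without random shRNA replicate 1 the medians were 0.05 for initiation, 0.07 for elongation and release, 0.13 for assembly factors and 0.125 for chaperones. They were -0.01 for RNA polymerase I, 0.16 for mTORC1 and translation control and 0.04 for the oligopyrimidine list. The small and large subunits had 0.14 and 0.07 in that fit. Differences between the lists were not tested.

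Mitochondrial ribosomal proteins, a second ribosome made in the same cells, had a median of 0.08 over 79 genes and a gap of -0.01 within the random shRNA pair. Proteasome subunits had a median of 0.01 over 38 genes and a gap of 0.09. Without random shRNA replicate 1 the medians were 0.10 for mitochondrial ribosomal proteins and 0.05 for proteasome subunits. Respiratory chain and ATP synthase genes had 0.15 over 98 genes and a gap of -0.30 within the random shRNA pair, and their median was 0.02 without random shRNA replicate 1. The differences between these lists and the cytosolic ribosomal proteins were not tested.

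**Figure D4:**
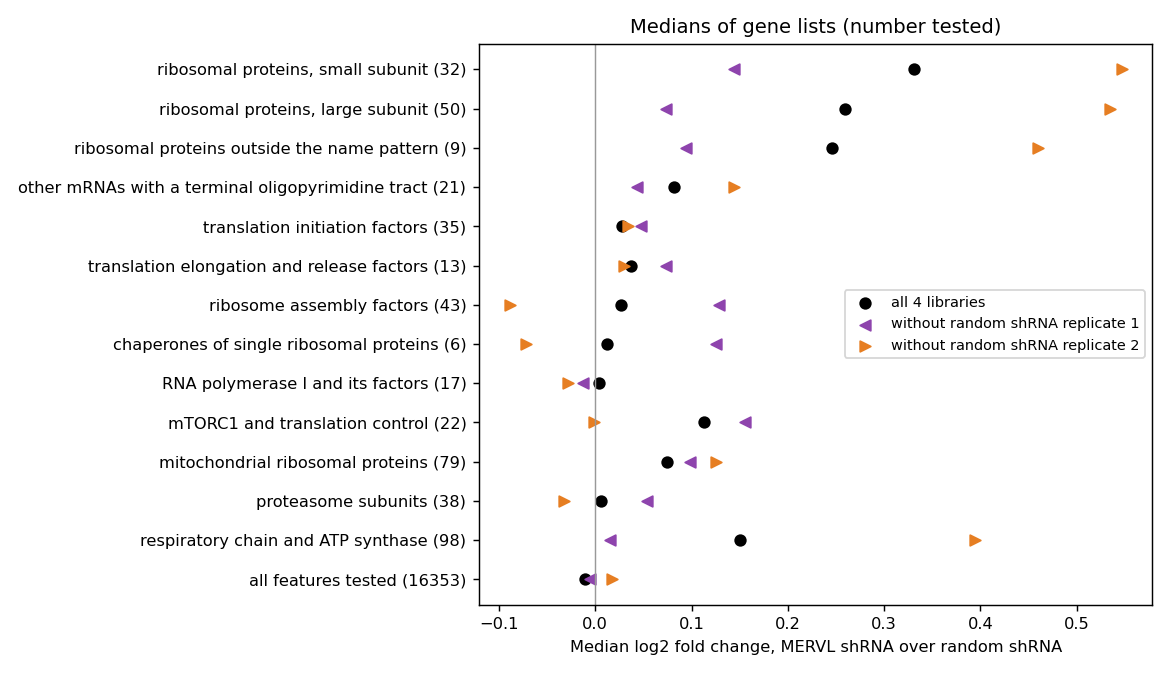
Median log2 fold change, MERVL shRNA over random shRNA, of gene lists with the number tested, from all 4 libraries (black) and without random shRNA replicate 1 or 2. The small and large subunit rows spread from 0.14 and 0.07 to 0.55 and 0.54, while translation initiation factors lie near 0.03 with all 4 libraries. Without random shRNA replicate 1 the assembly factor and mTORC1 rows lie at 0.13 and 0.16. The initiation and RNA polymerase I rows then lie at 0.05 and -0.01.

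Ribosomal protein transcripts are short, and the random shRNA libraries differed with exon length. Over all genes tested with an exon length under 1 kb the median gap within the random shRNA pair was -0.15 and the median log2 fold change 0.12, while between 4 and 8 kb they were 0.02 and -0.01. Ribosomal protein genes had -0.43 and 0.32 under 1 kb (13 genes) and -0.44 and 0.28 between 4 and 8 kb (6 genes). With an offset for length and GC content in each library, the medians were 0.35 for the small and 0.29 for the large subunit, about as without it, and edgeR again called 0 of the 82 (0.00612% of features higher, 0.0% lower). With a replicate block it called 0 as well (0.673% higher, 3.84% lower), and with block and offset Rps21 (1.81% higher, 6.08% lower). Length classes and offset both used the union of all annotated exons, which was 6256 bp for Rps24 and 4685 bp for Rps19. Isoforms with retained introns lengthen it, so a gene's class may not match its main mRNA. The part of mRNA length in the ribosomal protein values was not tested. Across the 82 genes the log2 fold change had a Pearson r of -0.06 with the longest transcript and 0.03 with GC content. Genes share libraries and are not independent.

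**Figure D5:**
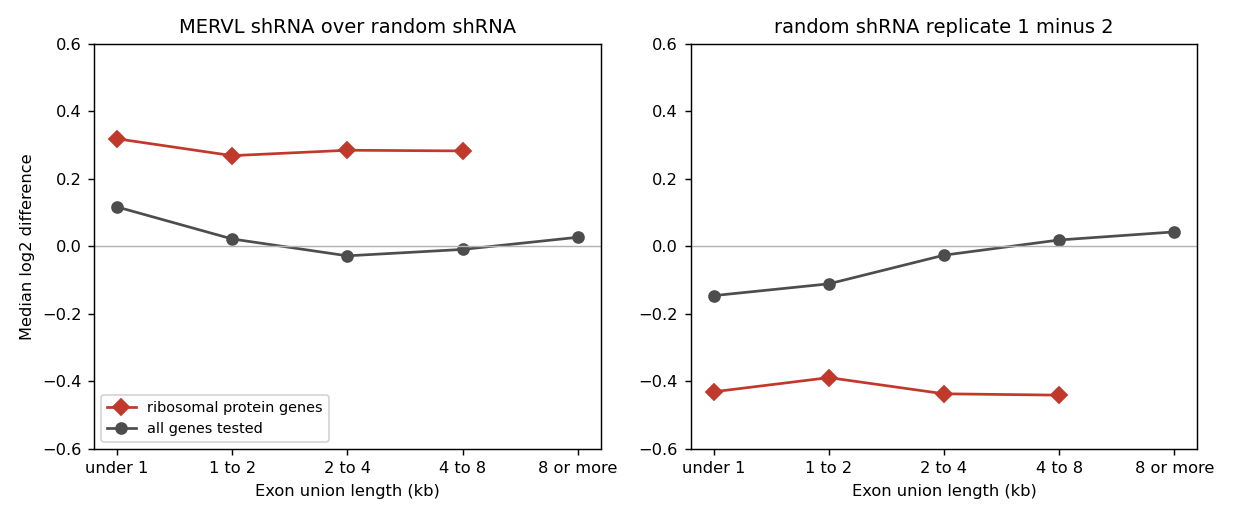
Median log2 fold change (left) and median gap within the random shRNA pair (right) by exon length in kb, for ribosomal protein genes (red diamonds) and all genes tested (grey circles). Ribosomal protein genes stay between 0.27 and 0.32 on the left and between -0.44 and -0.39 on the right in every length class that holds any.

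Embryonic stem cell cultures hold a small fraction of 2-cell-like cells, which express MERVL. A list of 8 of their markers summed to 315.3 and 179.2 CPM in MERVL shRNA libraries, against 1477 and 423.1 CPM in random shRNA libraries, and 8 of 8 were lower in both MERVL shRNA libraries, against 24.1% of all features. EdgeR called 0 of 8 lower (0.0% of all features), and 8 had an unadjusted p under 0.05 in that direction (8.92% of all features). The library highest in these markers, random shRNA replicate 1, was lowest in the share of ribosomal protein mRNA, and the library lowest in them, MERVL shRNA replicate 2, was highest in that share. The other 2 did not follow the reverse order. The part of these cells in the ribosomal protein values was not tested.

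The authors' deposited scores gave another picture of the random shRNA pair. On log2(score + 1) the median gap within it was 0.03 over the 82 genes, against -0.18 within the MERVL shRNA pair. Rps21 had scores of 6660 and 7649 in MERVL shRNA libraries, against 4983 and 4734 in random shRNA libraries. On that scale both MERVL shRNA libraries lay above both random shRNA libraries in 67 of 82 genes, against 34.5% of the table's 17823 features. The median log2 fold change was 0.29 for the small and 0.22 for the large subunit. Limma called 3 of the 82 higher, against 9.33% of the table, and 0 lower, against 10.3%. They were Rps21 (0.56, limma adjusted p = 0.0470), Rpl37 (0.41, limma adjusted p = 0.0486) and Rps28 (0.42, limma adjusted p = 0.0438). In random shRNA replicates 1 and 2, Rpl37 had scores of 9851 and 9481, where it had 515.6 and 827.2 CPM. For the 82 genes the scores hold little of the spread that the counts show within that pair, so these limma p-values do not measure that spread. The labels and headers do not say how the scores were made.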

How the data were processed

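RNA-seq libraries of 2 MERVL shRNA and 2 random shRNA samples were grouped by their titles. Trim Galore, HISAT2 and build mm10 are named, without versions, per the submitters' processing notes. No source used here gives the counting program or its use of strand. The authors deposited estimated counts per Ensembl gene and per MERVL copy, of which 19.1% to 20.8% per library were not whole, and a table of normalized scores for 17823 features. All columns were mapped to a sample. Estimated counts were rounded and tested with edgeR 4.0.16 (R 4.3.3): TMM scaling, filterByExpr, quasi-likelihood F test, group as the only term, 2-sided, Benjamini-Hochberg over 15735 genes and 618 MERVL copies, threshold 0.05. Fold changes are MERVL shRNA over random shRNA, and SEs come from the F statistic. CPM are TMM-scaled, and RPKM divides them by exon union length. Scores were tested with limma 3.58.1 on log2(score + 1). Names, lengths and positions came from GENCODE M21 (GRCm38, also called mm10), with names for 42329 of 43496 genes. The edgeR test was checked on simulated counts, where it recovered 46.2% of 93 2-fold and 87.1% of 101 4-fold changes. It made 3 false calls among 16066 features, and changes under 2-fold were not simulated. Alternatives were other scalings and filters, a robust prior, DESeq2 1.42.0, limma-voom, a replicate block, a length and GC offset (loess span 0.5) and leaving out each library. Genes named were the extremes of each subunit, paralogs and stalk genes, and in other lists those with the smallest p, with some members chosen after their values were seen. The members and lists were chosen with earlier results of these data known. No p is given for a sum over members: 2 against 2 libraries cannot go below an exact permutation p of 0.333. Some single-gene results are not reported here.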

Additional observations from a re-analysis of the deposited data

How the results depend on the processing

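With 16 alternative fits, no setting turned a subunit median negative. The features called in all, 1 with edgeR, numbered 1293 with no filter, 219 with DESeq2, 0 with limma-voom, 3500 with the scores, 738 with a replicate block, 1291 with a replicate block and the length and GC offset, and 2 to 5542 with a library left out. Ribosomal protein genes called numbered 0 with edgeR, 1 with no filter (Rps21), 3 with the scores, 0 with the replicate block and 1 with the block and the offset (Rps21). They numbered 0 to 61 with a library left out, the 61 without random shRNA replicate 2 (60 higher, 1 lower). The labels do not say whether same-numbered libraries share anything. With 2 pairs, their deviations from the group means had a correlation of 0.250, and the block was kept as an alternative. Medians with a library left out ran from 0.14 to 0.55 for the small and 0.073 to 0.535 for the large subunit. The median level per length, 612 RPKM over protein-coding members, was 1032 RPKM with the longest transcript. Without TMM factors Rpl10l and Rplp0 had -0.0324 and -0.0152. With a library left out, log2 fold changes crossed 0 for Rps13 (-0.16 to 0.0915), Rplp0 (-0.00029 to 0.13), Rps2 (-0.0114 to 0.175), Rpl39 (-0.15 to 0.48), Rpl3l (-0.21 to 0.59), Rpl41 (-0.0032 to 0.66), Rps24 (-0.12 to 0.52), Rps27l (-0.12 to 0.33) and Rpl10l (-0.0945 to 0.18). The causes were not tested. The spread between the random shRNA libraries exceeded counting error in the shares.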

Other observations

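Rows named as ribosomal protein pseudogenes (a symbol ending in -ps and a number) numbered 248, of which 73 were tested. Of these 61 had a positive log2 fold change (48.6% of all features), with a median of 0.30. Together they held 2549 and 2813 CPM in MERVL shRNA libraries, against 1989 and 2713 CPM in random shRNA libraries, so random shRNA replicate 1 was low here too. How reads were divided between these rows and their source genes was not tested, so the rows may not be separate from the members.

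Of the 82 genes, 29 hold at least 1 annotated snoRNA gene on the same strand, small RNAs that guide modification of rRNA and are spliced out with the host's introns. Their median log2 fold change was 0.26, against 0.28 in the 53 without one, and the median gaps within the random shRNA pair were -0.44 and -0.41.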
